A study of Homo sapiens with 10 samples.

Results

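The mitochondrial respiratory chain was followed through 37 of its subunits that are encoded in the nucleus, among 20289 genes in the deposited table of ribosome footprints. The members were taken by Ensembl gene ID from a fixed list: 11 subunits of complex I, 4 of complex II, 8 of complex III with its electron carrier cytochrome c, 9 of complex IV and 5 of complex V. All 37 IDs were found and all 37 passed the filter on low values. The table gives no gene names, so symbols are those of the list; under these symbols the RefSeq table (GRCh38.p14) holds 37 protein-coding genes on nuclear chromosomes.

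Footprints were sequenced from CFPAC-1 and PANC-1, established lines of human pancreatic ductal adenocarcinoma, after 0.1% DMSO or imidazole ketone erastin (IKE), an erastin derivative. It induces ferroptosis, in which peroxidised membrane lipids kill the cell. The groups were CFPAC-1 with DMSO (2 libraries), CFPAC-1 with 10 µM IKE (2 libraries), PANC-1 with DMSO (2 libraries) and PANC-1 with 1 µM IKE (4 libraries). The treatment label gives 24 h, whereas the extraction protocol describes repeated daily treatment, so the length of exposure is not settled. In every group only surviving cells were collected, and IKE groups therefore hold the survivors of treatment at doses that differ between the lines. Libraries are called bioreplicates in the labels, which do not say whether they came from separate cultures, so p-values measure the spread between these libraries.

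Complexes I to IV pass electrons from NADH and succinate to oxygen and, except for complex II, pump protons; complex V (ATP synthase) uses the proton gradient to make ATP. A few core subunits are made inside the mitochondrion, but most are translated by cytosolic ribosomes and imported, and it is these that footprints of cytosolic ribosomes report. Cytochrome c (CYCS) carries electrons from complex III to complex IV and, when released from mitochondria, triggers caspase activation. Transcription of many of these genes is known to depend on the factors NRF1 and GABP, an ETS-family factor. A footprint level reflects mRNA abundance and translation together, and these data do not tell them apart.

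The promoters of 4 members are shown, chosen among those that results turn on and that carry the letters searched for. UQCRH, which also carries such letters and was called between the lines, is not shown. Each sequence is the 250 bases before the RefSeq gene start (GRCh38.p14), read 5′ to 3′ on the gene's strand, with capitals marking an NRF1 core, GCATGCGC, or an ETS core, CCGGAAG, on either strand. CYCS lies at chr7:25125261-25125510 (minus strand), with an NRF1 core starting 169 bases before the gene start. ATP5F1C lies at chr10:7787927-7788176 (plus strand), with overlapping NRF1 cores on both strands. COX6B1 lies at chr19:35648073-35648322 (plus strand) and UQCRQ at chr5:132866392-132866641 (plus strand), each with 1 ETS core.
CYCS: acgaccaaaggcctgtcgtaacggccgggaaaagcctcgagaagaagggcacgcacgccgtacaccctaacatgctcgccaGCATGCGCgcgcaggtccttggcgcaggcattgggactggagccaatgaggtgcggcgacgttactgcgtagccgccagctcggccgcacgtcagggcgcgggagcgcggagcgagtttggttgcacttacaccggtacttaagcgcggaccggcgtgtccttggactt
ATP5F1C: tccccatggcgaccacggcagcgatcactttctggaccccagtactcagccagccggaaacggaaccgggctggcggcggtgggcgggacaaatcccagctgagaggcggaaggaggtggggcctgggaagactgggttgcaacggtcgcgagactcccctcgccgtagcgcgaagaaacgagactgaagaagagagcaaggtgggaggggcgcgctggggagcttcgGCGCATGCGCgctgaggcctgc
COX6B1: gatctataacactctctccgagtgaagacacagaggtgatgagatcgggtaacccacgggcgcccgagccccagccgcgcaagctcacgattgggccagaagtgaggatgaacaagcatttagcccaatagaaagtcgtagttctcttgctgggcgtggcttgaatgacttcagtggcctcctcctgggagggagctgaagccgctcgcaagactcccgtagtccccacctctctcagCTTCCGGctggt
UQCRQ: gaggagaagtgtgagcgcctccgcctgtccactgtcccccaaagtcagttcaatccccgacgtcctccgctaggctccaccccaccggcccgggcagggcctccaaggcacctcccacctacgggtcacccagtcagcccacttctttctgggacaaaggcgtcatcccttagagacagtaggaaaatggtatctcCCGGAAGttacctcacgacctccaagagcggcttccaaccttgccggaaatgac

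Of the 37 members, 31 matched a promoter window by symbol, with 35 windows among them. A member counts where any of its windows holds a core, whereas the whole table is counted by single windows. The NRF1 core was present in 7 of the 31 (22.6%), namely ATP5F1C, COX5B, COX6A1, CYCS, NDUFS7, SDHB and SDHD, against 2.63% of the 35116 windows in the whole table. The ETS core was present in 11 of the 31 (35.5%), among them COX6B1, UQCRH, UQCRQ and ATP5F1A, against 8.52% of all windows. Between the lines, as described below, 33.6% of all tested genes and 16.2% of members were called. Of the 7 holders of the NRF1 core, CYCS (higher in PANC-1) and ATP5F1C (lower) were called. Of the 11 holders of the ETS core, COX6B1 and UQCRH (both higher) were called. NDUFB10, also called higher, had neither core in its window. These counts are too small to set against the shares. Whether either core bears on any level was not tested. A match describes letters in this window only.

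Levels were compared per gene length, as FPKM (fragments scaled by gene length and library size). Means over the 10 libraries ran from 79.3 FPKM for NDUFS1 to 2099 FPKM for COX6A1, with a median of 369.974 FPKM over the members, against a median of 20.2 FPKM over the 13125 genes tested. In complex I, which takes electrons from NADH, the highest mean was 500.5 FPKM for NDUFS8, an iron-sulphur subunit, and the lowest that of NDUFS1, the largest iron-sulphur subunit. In complex II (succinate dehydrogenase) means ran from 120.4 FPKM for SDHA, the flavoprotein, to 446 FPKM for the membrane anchor SDHD. In complex III they ran from 133 FPKM for UQCRC1, a core protein, to 1467 FPKM for the small subunit UQCRB. In complex IV (cytochrome c oxidase) they ran from 483 FPKM for COX4I1 to COX6A1, and in complex V from 223 FPKM for ATP5F1C, the gamma subunit of the rotor, to 578 FPKM for ATP5F1B, the catalytic beta subunit.

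**Figure D1:**
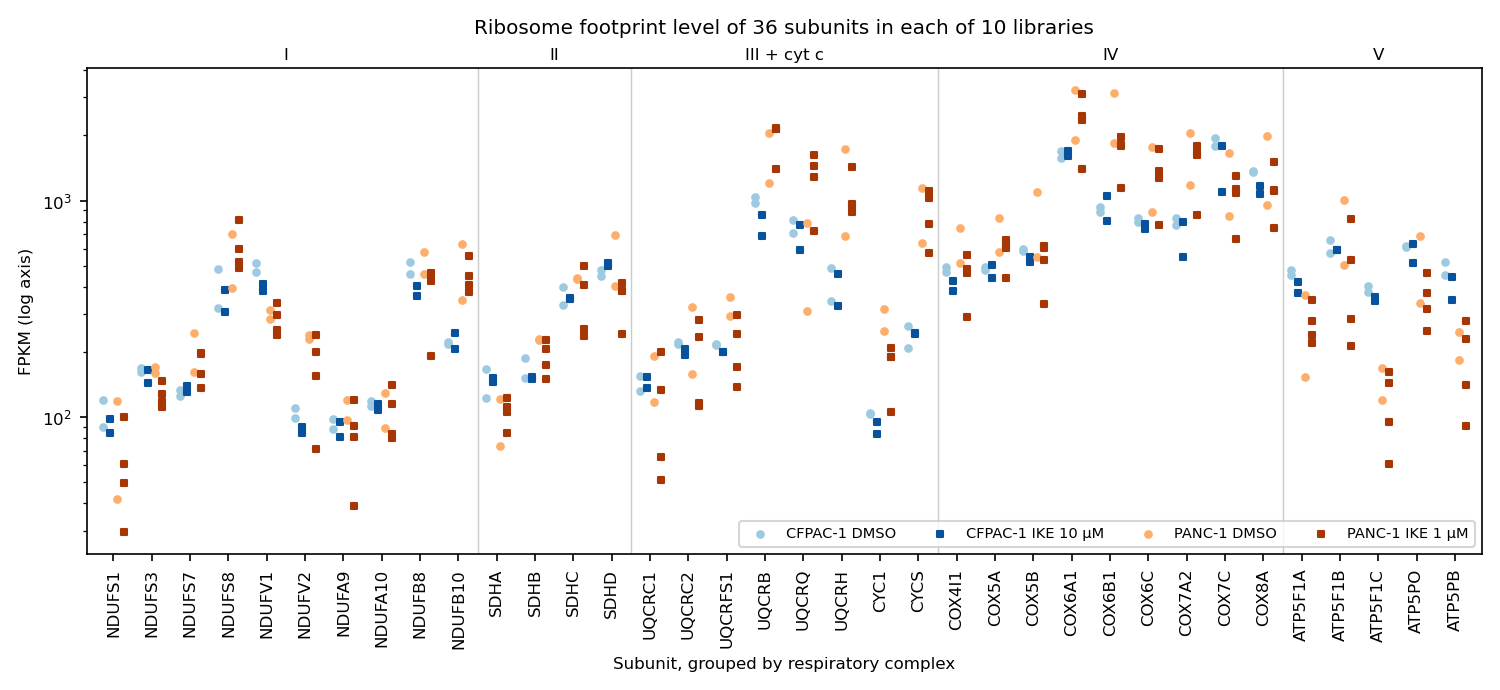
Footprint level (FPKM, log axis) of 36 of the 37 subunits, grouped by complex; each point is 1 library, coloured by line and treatment (2, 2, 2 and 4 libraries). CFPAC-1 points lie close together for each subunit, while PANC-1 points spread more widely, as in NDUFS1 (29.5 to 118.8 FPKM).

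The libraries differed in depth and spread. Relative depth, read from the steps of low FPKM values with CFPAC-1 DMSO library 1 set to 1, was 0.916 to 1.174 in the other CFPAC-1 libraries, 0.328 and 0.508 in PANC-1 DMSO, and 0.21 to 0.877 in PANC-1 IKE, with libraries 2 (0.239) and 4 (0.21) the shallowest. In PANC-1 IKE libraries 2, 3 and 4 the 10 most abundant genes took 16.2%, 12.2% and 23.1% of all FPKM, and 8.51% to 9.64% elsewhere. A member's SD around its group means had a median of 0.10 (log2) in CFPAC-1 against 0.50 in PANC-1, where all 37 members varied more; over all tested genes the medians were 0.18 and 0.48. For IKE in PANC-1, members named with their values are also given without libraries 2 and 4.

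As a share of each library's summed FPKM, the 37 subunits held 1.444% and 1.445% in CFPAC-1 DMSO and 1.277% and 1.366% in CFPAC-1 IKE. They held 2.09% and 1.618% in PANC-1 DMSO and 1.779%, 1.764%, 1.741% and 1.16% in PANC-1 IKE. Every PANC-1 library except IKE library 4 lay above all 4 CFPAC-1 libraries. By complex the lines did not move together. Complex III with cytochrome c held 0.21% to 0.25% in the 4 CFPAC-1 libraries and 0.331% to 0.479% in the 6 PANC-1 libraries, without overlap. Complex V held 0.185% to 0.207% in CFPAC-1 and 0.0719% to 0.181% in PANC-1, below CFPAC-1 in every library. Complex IV ranged from 0.61% to 0.713% in CFPAC-1 and from 0.515% to 1.173% in PANC-1, with overlap through IKE library 4.

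**Figure D2:**
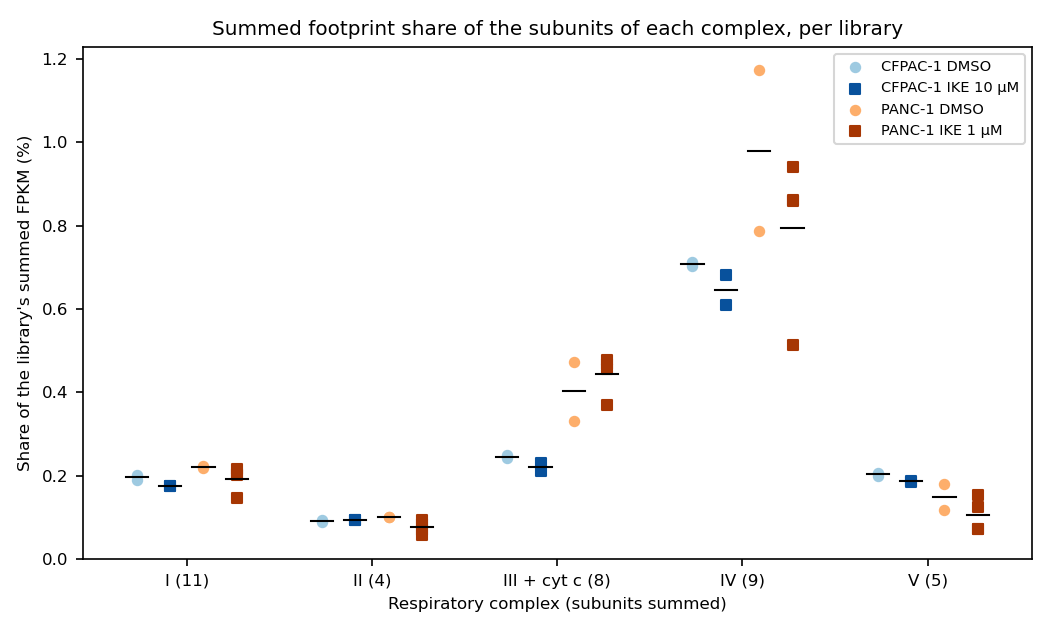
Summed FPKM of the listed subunits of each complex as a percentage of the library's summed FPKM; each point is 1 library and black bars are group means. Complex III with cytochrome c lies higher and complex V lower in all PANC-1 libraries than in all CFPAC-1 libraries.

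The lines were compared in DMSO, PANC-1 against CFPAC-1, to describe the chain before any IKE. Differences below are on the log2(FPKM + 1) scale with standard errors from limma, fitted to all 10 libraries, and a gene counts as called where its p, adjusted over all genes tested, was under 0.05. CYCS, CYC1, COX6B1, UQCRH and NDUFB10 were higher in PANC-1 and ATP5F1C was lower, 6 of 37 members (16.2%). The calls took in 33.6% of all tested genes, with 15.1% above and 18.5% below CFPAC-1. The members' median difference was 0.22, against -0.03 over all tested genes.

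CYCS (ENSG00000172115, chr7:25118656-25125260) had 264 and 209.0 FPKM with DMSO in CFPAC-1 and 1146 and 638 FPKM with DMSO in PANC-1. Both PANC-1 libraries lay above both CFPAC-1 libraries, by 1.86 ± 0.38 (SE) on the log2 scale (limma adjusted p = 0.00377). The IKE libraries, which are separate libraries, had 244 and 242 FPKM in CFPAC-1 and 570 to 1105 FPKM in PANC-1, so no CYCS value of one line reached the other over all 10 libraries. RefSeq lists 45 CYCS pseudogenes by symbol, and how reads shared with such copies were assigned is not given in the sources used here.

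CYC1 (ENSG00000179091), the cytochrome c1 of complex III that hands electrons to cytochrome c, had 104 FPKM in both CFPAC-1 DMSO libraries and 317 and 249 FPKM in PANC-1. It was higher in PANC-1 by 1.43 ± 0.33 (SE; limma adjusted p = 0.00793). UQCRH (ENSG00000173660, chr1:46303698-46316776), the hinge protein at the docking site of cytochrome c1 and cytochrome c, had 488 and 344 FPKM in CFPAC-1 and 1735 and 686 FPKM in PANC-1. It was higher by 1.41 ± 0.43 (SE; limma adjusted p = 0.0297); without PANC-1 DMSO library 1 the difference was 0.74 and not called, and without PANC-1 DMSO library 2 it was 2.08. The core proteins UQCRC1 and UQCRC2 differed by 0.07 ± 0.56 and 0.03 ± 0.48 (SE) and overlapped between the lines.

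COX6B1 (ENSG00000126267, chr19:35648323-35658782), a complex IV subunit on the intermembrane side where cytochrome c binds, had 933 and 887 FPKM in CFPAC-1 DMSO and 3131 and 1851 FPKM in PANC-1 DMSO, a difference of 1.40 ± 0.35 (SE; limma adjusted p = 0.0115). Of the 9 complex IV subunits 8 had a difference above 0, with a median of 0.51; COX7C was the exception at -0.65 ± 0.42 (SE), with 1781 and 1950 FPKM in CFPAC-1 and 1658 and 852 FPKM in PANC-1. The FPKM ratio of COX7C to COX6B1 was 1.909 and 2.198 in CFPAC-1 DMSO and 0.5295 and 0.4603 in PANC-1 DMSO, and in the IKE libraries 1.038 and 2.209 in CFPAC-1 and 0.5753 to 0.7264 in PANC-1. The ratio was lower in every PANC-1 library than in any CFPAC-1 library. These 2 subunits hold the highest and the lowest difference of complex IV and were chosen after the values were seen. A lower ratio in PANC-1 DMSO was therefore fixed by the choice. Ratios of other pairs of this complex were not computed.

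NDUFB10 (ENSG00000140990, chr16:1959538-1961975), an accessory subunit of the complex I membrane arm, had 217 and 222 FPKM in CFPAC-1 DMSO and 633 and 348 FPKM in PANC-1 DMSO, a difference of 1.09 ± 0.32 (SE; limma adjusted p = 0.0234). Without PANC-1 DMSO library 1 the difference was 0.66 and not called. Complex I as a whole had a median difference of 0.07, with 7 subunits above 0 and 4 below. Its flavoprotein subunits NDUFV1 and NDUFV2, which form the NADH-oxidising tip together with NDUFS1, differed in opposite directions. NDUFV1 had 516 and 466 FPKM in CFPAC-1 and 285 and 314 FPKM in PANC-1 (-0.71 ± 0.25, SE; limma adjusted p = 0.0506). NDUFV2 had 99.1 and 109.9 FPKM in CFPAC-1 and 240.5 and 229 FPKM in PANC-1 (1.16 ± 0.47, SE; limma adjusted p = 0.08). Neither passed the threshold in this fit, although for both the DMSO libraries of the lines did not overlap.

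ATP5F1C (ENSG00000165629, chr10:7788177-7807801) had 403 and 378 FPKM in CFPAC-1 DMSO and 120.4 and 168 FPKM in PANC-1 DMSO. It was the only called member that was lower in PANC-1, by -1.45 ± 0.41 (SE; limma adjusted p = 0.0217). The IKE libraries had 344 and 360.2 FPKM in CFPAC-1 and 61.1 to 161 FPKM in PANC-1, again without overlap. Complex V had the lowest median of the 5 groups, -0.97, with 4 of 5 subunits below 0: ATP5PB, of the stator stalk, was at -1.18 ± 0.46 and the catalytic-ring subunit ATP5F1A at -0.97 ± 0.38 (SE), neither past the threshold. ATP5F1B, the partner of ATP5F1A in the catalytic ring, was at 0.22 ± 0.57 (SE), with overlapping values of 656 and 574 FPKM in CFPAC-1 and 504 and 1010.2 FPKM in PANC-1. Complex II, whose 4 subunits had a median of 0.23, had no called member.

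**Figure D3:**
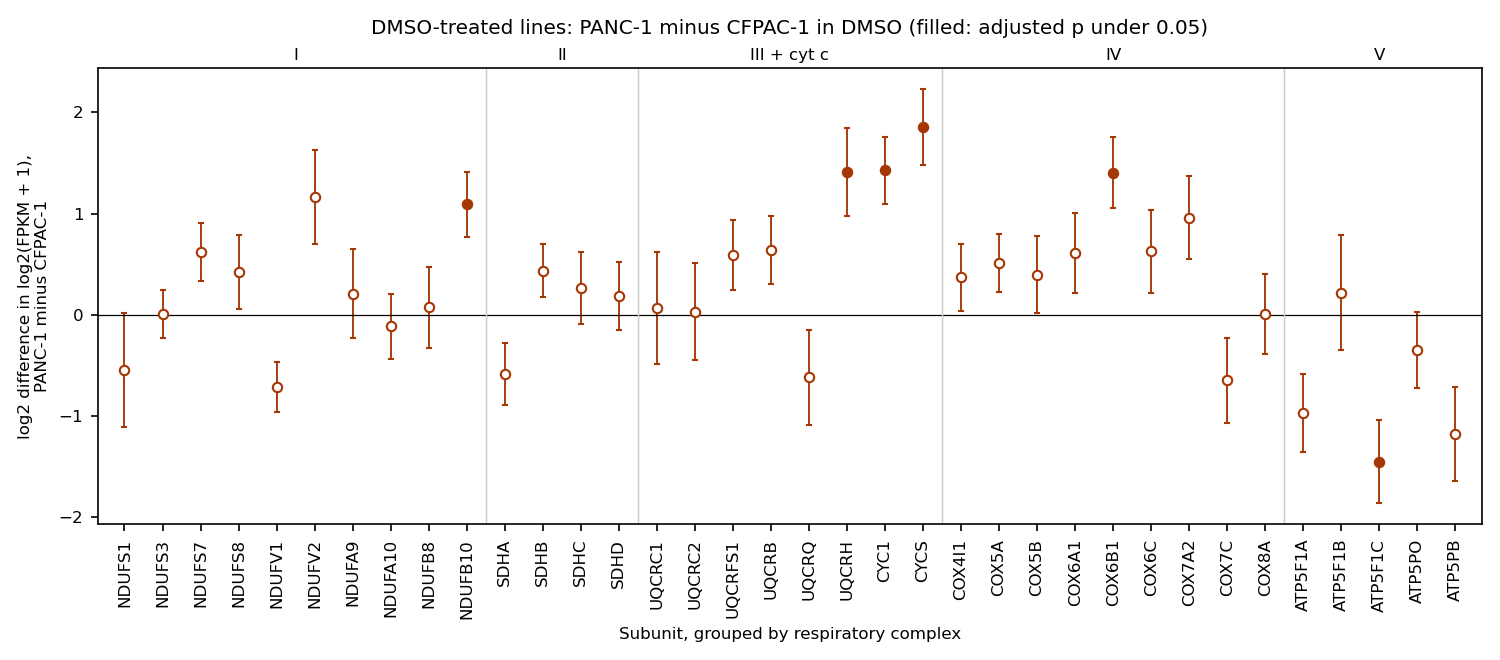
Difference between the lines in DMSO, PANC-1 minus CFPAC-1, for 36 of the 37 subunits on the log2(FPKM + 1) scale; points are limma estimates from all 10 libraries, bars are standard errors, and filled points have an adjusted p under 0.05. The 5 filled points above 0 are NDUFB10, UQCRH, CYC1, CYCS and COX6B1, and the filled point below 0 is ATP5F1C.

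In DMSO alone, the 2 libraries of PANC-1 lay above the 2 of CFPAC-1 for 16 members (43.2%; 33.8% of all tested genes) and below them for 6 members (16.2%; 36.8% of all tested genes). Over all 10 libraries, 7 members were higher in every PANC-1 library (18.9%; 19.4% of all tested genes): NDUFB10, UQCRB, UQCRH, CYC1, CYCS, COX6B1 and COX7A2. NDUFV1, ATP5F1A, ATP5F1C and ATP5PB were lower in every PANC-1 library (10.8%; 25.0% of all tested genes). Of the 4 members lower throughout, 3 belong to complex V.

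The calls between the lines depended on single libraries. Without CFPAC-1 DMSO library 1, CFPAC-1 DMSO library 2 or PANC-1 DMSO library 1, only CYCS was called (2.7% of members), where 19.0%, 19.2% and 24.9% of all tested genes were. Without PANC-1 IKE library 4 there were 10 calls (27.0%), against 40.4% of all tested genes. A fit of the 4 DMSO libraries alone, where 32.0% of tested genes were called, also called 6 members: CYC1, CYCS, COX6B1, ATP5F1C, NDUFV2 and ATP5PB. NDUFB10 and UQCRH were not called there (limma adjusted p = 0.078 and 0.109). CYCS was called under all 22 alternatives, at 1.44 to 2.28 on the log2 scale.

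In CFPAC-1, 10 µM IKE was compared with DMSO to ask how the chain stood in surviving cells. No member was called, against 0.00762% of tested genes, and none had an unadjusted p under 0.05 in the limma fit, against 1.48%. Most differences were small and below 0: 29 of 37 (78.4%, against 51.6% of all tested genes), with a median of -0.11 against -0.01 over all tested genes. With quantile normalization 25 lay below 0 and the members' median was -0.07. With libraries scaled to equal FPKM totals 29 did, with a median of -0.08. Without single CFPAC-1 libraries the members' median ran from -0.10 to -0.15. The IKE libraries lay below the DMSO libraries without overlap for 15 members (40.5%; 22.3% of all tested genes) and above them for 1, SDHD (2.7%; 20.2% of all tested genes). They included NDUFV1, NDUFV2 and NDUFB8 of complex I, UQCRC2, UQCRFS1, UQCRB and CYC1 of complex III, COX4I1, COX5B, COX6C and COX8A of complex IV, and ATP5F1A, ATP5F1C and ATP5PB of complex V.

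The lowest estimate was that of COX7C, with 1781 and 1950 FPKM in DMSO and 1089 and 1783 FPKM in IKE (-0.42 ± 0.42, SE). Its groups overlapped, and the low value came from IKE library 1. UQCRB had 972 and 1043 FPKM in DMSO and 686 and 860.3 FPKM in IKE (-0.39 ± 0.34, SE), and NDUFB8, an accessory subunit of complex I, had 459 and 521 FPKM in DMSO and 361 and 402 FPKM in IKE (-0.36 ± 0.40, SE). Both IKE values lay below both DMSO values for these 2 genes.

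The highest estimates were in complexes I and II. SDHD had 449 and 479 FPKM in DMSO and 498 and 513 FPKM in IKE (0.12 ± 0.34, SE). NDUFS7, an iron-sulphur subunit of complex I, stood at 0.06 ± 0.29 and SDHA at 0.06 ± 0.31 (SE), both with overlapping groups. Complex II was the only group with a median above 0 (0.01), while all 5 complex V subunits lay below 0 (median -0.15).

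In a fit of the 4 CFPAC-1 libraries alone, which uses the smaller spread of this line, again no member was called. The lowest limma adjusted p was 0.385. The members' median SE was 0.38 in the fit of all 10 libraries, which also carries the spread of PANC-1, and 0.10 in this fit. Here the SE was 0.28 for COX7C, 0.14 for UQCRB, 0.11 for NDUFB8 and 0.07 for SDHD. There 4 members had an unadjusted p under 0.05, all lower in IKE (12.1% of tested genes did, in either direction): NDUFV1, NDUFB8, COX4I1 and COX8A. COX4I1, which takes part in the regulation of the oxidase by ATP, had 491 and 469.7 FPKM in DMSO and 381 and 424 FPKM in IKE, and COX8A had 1364 and 1359 FPKM in DMSO and 1075 and 1171 FPKM in IKE.

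In PANC-1, 1 µM IKE was compared with DMSO in the same way. No member was called, against 0.0152% of tested genes. At an unadjusted p under 0.05, UQCRQ was higher and CYC1 and UQCRFS1 were lower in the limma fit, 3 of 37 members against 17.6% of tested genes; in a fit of the 6 PANC-1 libraries alone only UQCRQ remained below this value, against 11.0%. Differences were below 0 for 32 of 37 members (86.5%; 51.1% of all tested genes), with a median of -0.33 against -0.02. The groups did not overlap for NDUFS3 and CYC1, both lower in IKE (5.41% of members; 12.2% of all tested genes), and no member was higher without overlap (10.2% of all tested genes).

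The count below 0 moved with libraries of both groups. IKE library 4, the shallowest, held the lowest value of the 4 IKE libraries for 28 of 37 members (75.7%; 34.2% of all tested genes), and of all 6 PANC-1 libraries for 25. Without it, 26 members lay below 0 and their median was -0.15; without libraries 2 and 4 together, 20 lay below 0 and the median was -0.04. Without DMSO library 1, 24 lay below 0 and the median was -0.21. The part of depth in this was not tested.

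UQCRQ (ENSG00000164405, chr5:132866642-132868847), a small subunit of complex III that sits beside cytochrome b, had 786 and 310.3 FPKM in DMSO and 727, 1621, 1279 and 1437 FPKM in IKE libraries 1 to 4. It stood higher in IKE libraries 2, 3 and 4 than in either DMSO library, while IKE library 1 lay between the DMSO libraries. The difference was 1.29 ± 0.41 (SE; limma adjusted p = 0.176); without DMSO library 2 it was 0.63, and without DMSO library 1 it was 1.96, both uncalled. Without IKE libraries 2 and 4 it was 0.96 ± 0.44 (SE). In CFPAC-1 the gene had 709 and 810.3 FPKM in DMSO and 589 and 771 FPKM in IKE. The RefSeq span of UQCRQ overlaps that of GDF9, and whether the counting used strand is not given in the sources used here.

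The FPKM ratio of UQCRQ to UQCRC1, a small and a large subunit of the same complex, was 4.592 and 6.137 in CFPAC-1 DMSO and 4.341 and 5.011 in CFPAC-1 IKE. In PANC-1 it was 6.723 and 1.619 in DMSO and 3.651, 24.83, 9.622 and 28.13 in IKE libraries 1 to 4. The ratio differed severalfold among libraries of 1 group. It was highest in the 2 shallowest libraries, whereas in PANC-1 DMSO the shallower library 2 (0.328 against 0.508) had the lower ratio. The part of depth was not tested.

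CYC1 had 317 and 249 FPKM in DMSO and 209, 189, 189 and 106 FPKM in IKE, all 4 below both DMSO libraries (-0.74 ± 0.29, SE; limma adjusted p = 0.227). Without IKE libraries 2 and 4 the difference was -0.50 ± 0.20 (SE). Even so, its lowest PANC-1 value lay above its highest CFPAC-1 value, 104 FPKM. UQCRFS1, the Rieske iron-sulphur protein of complex III, had 360.5 and 294 FPKM in DMSO and 297, 170.1, 242 and 138 FPKM in IKE (-0.68 ± 0.30, SE; limma adjusted p = 0.277), and its groups overlapped; without IKE libraries 2 and 4 it stood at -0.28 ± 0.19 (SE). ATP5F1B had the lowest estimate, -0.82 ± 0.49 (SE), with 504 and 1010.2 FPKM in DMSO and 823, 212, 529 and 285 FPKM in IKE. IKE libraries 1 and 3 lay between the DMSO libraries, and libraries 2 and 4, the shallowest, lay below both; without these it stood at -0.11 ± 0.35 (SE). After UQCRQ, the highest estimates were those of UQCRB (0.30 ± 0.29) and NDUFS8 (0.17 ± 0.32, SE), neither past the threshold; without IKE libraries 2 and 4 they stood at 0.45 ± 0.27 and 0.04 ± 0.32 (SE). CYCS stood at -0.02 ± 0.33 (SE), with overlapping groups, and without these libraries at 0.32 ± 0.28 (SE).

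**Figure D4:**
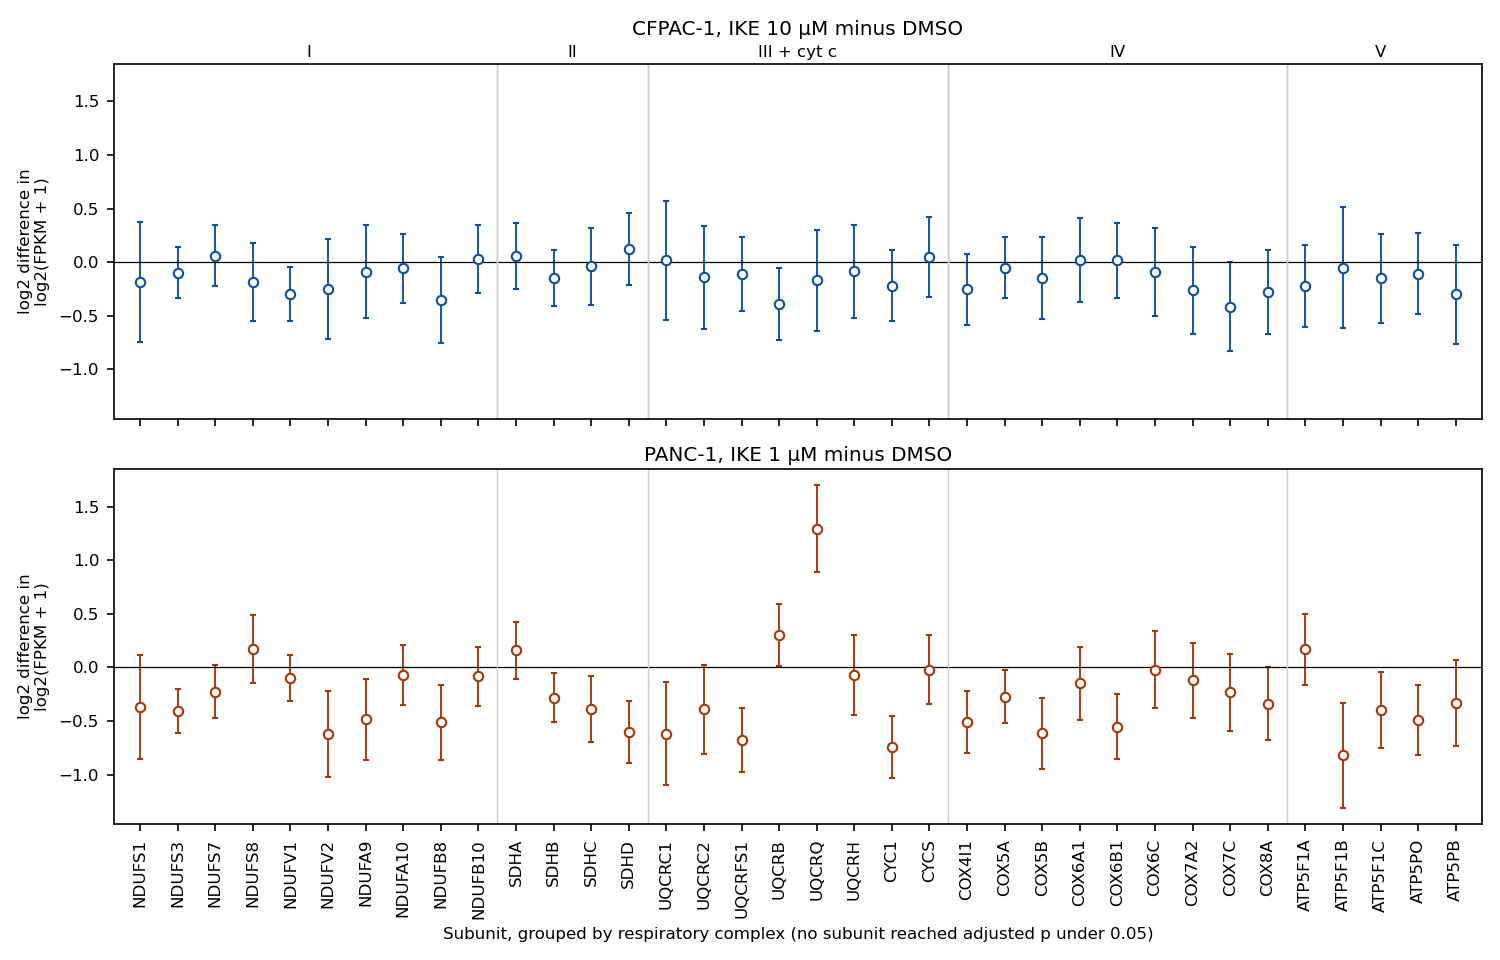
Difference between IKE and DMSO for 36 of the 37 subunits on the log2(FPKM + 1) scale in CFPAC-1 (upper panel, 10 µM) and PANC-1 (lower panel, 1 µM); points are limma estimates and bars standard errors from the fit of all 10 libraries. The bars in CFPAC-1 therefore also carry the larger spread of PANC-1. No subunit reached an adjusted p under 0.05. In PANC-1, UQCRQ stands at 1.29 and ATP5F1B at -0.82.

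The IKE effects of the lines were then compared directly, PANC-1 minus CFPAC-1, with the doses differing as above. No member was called (0.0305% of tested genes), and UQCRQ alone had an unadjusted p under 0.05, against 8.41% of tested genes. Its difference of effects was 1.46 ± 0.62 (SE; limma adjusted p = 0.581). The next highest were UQCRB (0.69 ± 0.44) and ATP5F1A (0.39 ± 0.51), and the lowest were ATP5F1B (-0.77 ± 0.75), SDHD (-0.73 ± 0.44) and UQCRC1 (-0.64 ± 0.74, SE). Without PANC-1 IKE libraries 2 and 4 the differences of effects were 1.13 ± 0.63 for UQCRQ, 0.84 ± 0.38 for UQCRB and 0.61 ± 0.52 (SE) for ATP5F1A. They were then -0.06 ± 0.49 for ATP5F1B and -0.60 ± 0.36 for SDHD, and UQCRC1 changed sign to 0.10 ± 0.42 (SE). None of the 6 was called. The comparison of IKE with DMSO in CFPAC-1 and that in PANC-1 share no library with each other. Across the 37 members the sizes in the lines had Pearson's r = -0.088 and Spearman's rho = -0.0114, a description across genes. Over all tested genes these were -0.00968 and -0.0493. By direction, 25 members were below 0 in both lines (67.6%, against 25.7% of all tested genes) and 1 was above 0 in both (2.7%, against 21.8%). Without PANC-1 IKE libraries 2 and 4, 15 members were below 0 in both.

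Within PANC-1, libraries of the same group also differed from each other. Between PANC-1 DMSO libraries 1 and 2 the members' log2 differences ran from -1.47 (NDUFS1) to 1.34 (UQCRQ), and between IKE libraries 2 and 1 from -1.95 (ATP5F1B) to 1.16 (UQCRQ). Across the 37 members these differences, which share no library, had Pearson's r = 0.797 and Spearman's rho = 0.801, against 0.206 and 0.259 over all 13125 tested genes. Replicates have no order, and the direction in which each pair was subtracted was chosen after the values were seen; turning 1 pair around turns the sign. Over the 10 pairings of such differences computed, the others had Pearson's r from -0.309 to 0.525 across the members. All are given as a description across genes, which are not independent replicates.

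UQCRQ, UQCRH and NDUFS8 were the 3 highest in IKE library 2 over 1, and in DMSO library 1 over 2 they stood at 1.34, 1.34 and 0.82. In all, 12 members were above 0 in both pairs and 12 below 0 in both, among the latter NDUFS1, UQCRC1, UQCRC2, ATP5F1A and ATP5F1B. Another 12 were above 0 in DMSO library 1 over 2 and below 0 in IKE library 2 over 1, and 1 was the reverse. The same counts over all tested genes were not made. The 9 complex IV subunits were all higher in DMSO library 1 than in library 2 (median 0.80), and 4 of the 5 complex V subunits were lower (median -0.48). In IKE library 2 over 1, complex IV had a median of 0.22, with 5 of 9 above 0, and all 5 complex V subunits were below 0 (median -0.75). As the pairs were subtracted, DMSO library 1 was deeper than library 2 (0.508 against 0.328). IKE library 2 was shallower than library 1 (0.239 against 0.877). The part of depth in these differences was not tested.

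The differences of IKE library 4 from library 3 had Pearson's r = 0.525 and Spearman's rho = 0.476 with those of IKE library 2 from library 1 (0.176 and 0.236 over all tested genes). With those of DMSO library 1 from library 2 they had 0.328 and 0.302 (0.0798 and 0.0773 over all tested genes). Library 4 was lower for 36 of 37 members, with a median of -0.75 against -0.04 over all tested genes, and UQCRQ, at 0.17, was the exception. Between CFPAC-1 libraries of 1 group the members differed less, from -0.60 to 0.50 in DMSO and from -0.71 to 0.49 in IKE.

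**Figure D5:**
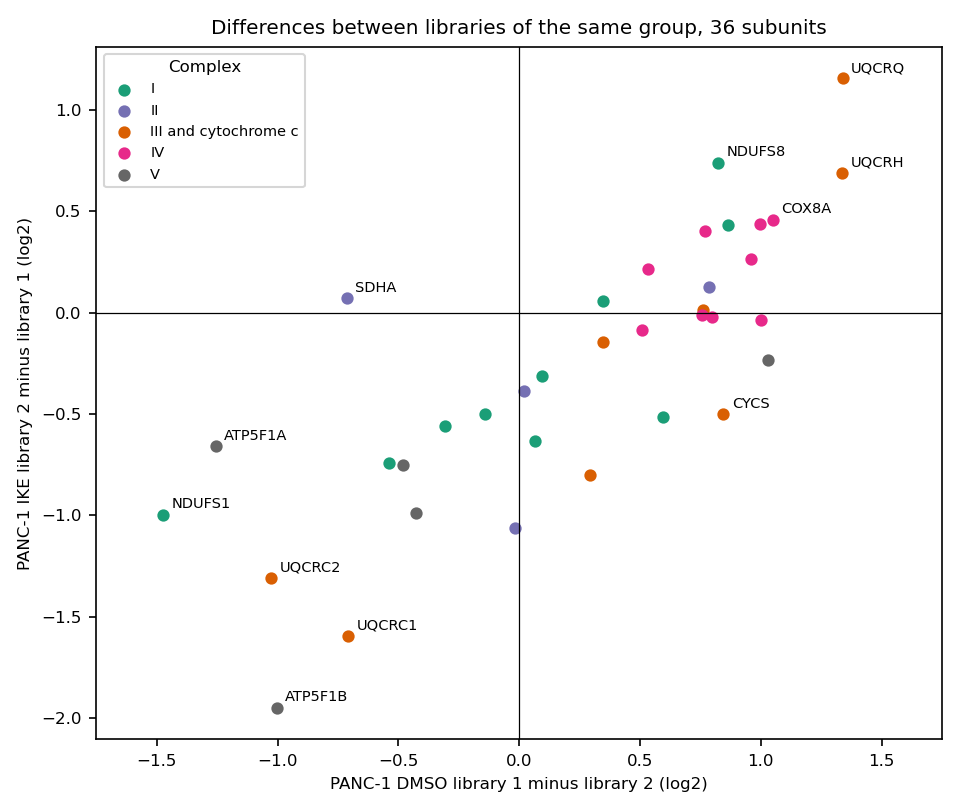
Log2 differences between libraries of the same group for 36 of the 37 subunits: PANC-1 DMSO library 1 minus library 2 (horizontal) against PANC-1 IKE library 2 minus library 1 (vertical), coloured by complex. Points run from ATP5F1B, NDUFS1, UQCRC1 and UQCRC2 at the lower left to UQCRQ at the upper right (Pearson's r = 0.797 across 37 members).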

How the data were processed

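Ribosome footprints were taken as the authors' deposited FPKM values, 1 column per library, per the file headers; all 10 columns were matched to libraries by name and none was pooled. Per the submitters' processing notes, GRCh38 was the build and the tools included RSEM, STAR, DESeq2, fastp and Bowtie2 2.2.8, whose roles are not stated. The sources used here do not give the annotation, strand setting or treatment of shared reads. The members and lists were chosen with earlier results of these data known.

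FPKM is not a count, so log2(FPKM + 1) was fitted with limma 3.58.1 in R 4.3.3 (4 groups, 10 libraries, 6 residual degrees of freedom, mean-variance trend) over the 13125 genes whose mean reached 1 FPKM, with Benjamini-Hochberg adjustment and a threshold of 0.05. The script was tested on simulated data with each line's own spread: it recovered the sizes of known changes, but, since the fit pools the lines' spread, it called more unchanged genes for IKE in PANC-1 than the threshold allows and missed small changes in CFPAC-1; fits of only the libraries compared are therefore given beside it. The comparison between the lines was not simulated. This scale understates changes of low values. Depth is known only relative to 1 library, so no counting interval is given. Named genes were all called members and, with under 4 calls, the 3 highest and 3 lowest estimates, plus the highest and lowest mean of each complex; others are named in counts or chosen after their values were seen. Values of 1 member are not reported here by name; it is kept in all counts and sums and left out of plots of single members. Lists of other pathway genes and cell type markers could not be matched to the table's Ensembl IDs with the reference used here and were not analysed here, so the lines were not checked by markers. By RefSeq, 26 members have pseudogenes by symbol and 14 overlap another gene, which makes such values uncertain.

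Alternatives changed the pseudocount (0.1, 5), the filter (none, 5 FPKM), the scaling, the library weights, the block and the libraries fitted.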

Additional observations from a re-analysis of the deposited data

Results flagged for a closer look

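In PANC-1 with IKE, 1 library stood apart from the other 3 for 4 of the 37 members, by Dixon's 95% criterion on the gap over the range. Chance flags about 1 in 20 independent groups of 4. The members share their libraries, so their flags are not independent, and the share over all tested genes was not computed. The count is therefore not read as an excess in these members. NDUFB8 had 191.91 FPKM in library 4 against 423 to 463 FPKM, UQCRB 1405.05 FPKM in library 4 against 2138 to 2168 FPKM, and COX7A2 855.35 FPKM in library 4 against 1631 to 1784 FPKM. UQCRH had 1430.17 FPKM in library 2 against 886 to 969 FPKM. Libraries 2 and 4 were also the shallowest of the 10; the part of depth was not tested.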

How the results depend on the processing

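Under the 22 alternatives, no member was called for IKE in CFPAC-1 or in PANC-1 or, where it could be fitted, for the difference of the effects. Between the lines in DMSO the count of 6 members became 11 with quantile normalization, 11 with library weights and 11 without PANC-1 IKE libraries 2 and 4 together, where 34.5%, 37.7% and 44.3% of all tested genes were called against 33.6%; leaving out 1 library at a time gave 1 to 10. With the replicate number as a block (replicate block, 8 libraries) 4 members were called, against 19.4% of all tested genes. In PANC-1 24 members then lay below 0 for IKE. Over all tested genes, deviations of same-numbered DMSO and IKE libraries correlated at 0.049 in CFPAC-1 and at -0.169 and -0.163 in PANC-1. Such a correlation cannot show whether these libraries share a culture or a day, and the labels give only the number. No called difference changed sign under any of the 22 alternatives (0 of 132 values). Many of these values could not change. Other filters, the library weights, leaving out IKE libraries and fitting only the libraries compared all kept the estimates between the lines. Of the values that were not called, 27 of 814 changed sign in CFPAC-1 and 58 of 814 in PANC-1. The counts were 92 of 740 for the difference of the effects and 20 of 682 between the lines. Many of these were likewise fixed, as an IKE estimate is where only a library of the other line was left out. The counts therefore say little about stability. Median centring moved the median difference between the lines over all tested genes from -0.03 to 0.10, and quantile normalization also to 0.10, with the members' median at 0.34 and 0.28. Fits of only the libraries compared with their own filter, chosen after seeing the data, called 0 members for IKE in CFPAC-1, 0 in PANC-1 and 6 between the lines. Over all genes tested there, 16 of 12563 were called for IKE in CFPAC-1. For IKE in PANC-1, 1 gene was called higher and 1 lower of 12611, and between the lines 34.5% were called. Where a group was left with 1 library, its spread was assumed to be that of the rest.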
